A study of Mus musculus with 8 samples.

Results

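Oxytocin and vasopressin are peptide hormones of the hypothalamus that also act in the brain on social memory and social behaviour. The genes described here are 7 members of this signalling system: the peptide precursors Oxt and Avp, the receptors Oxtr, Avpr1a and Avpr1b, the enzyme Cd38, which takes part in oxytocin release, and the peptidase Lnpep, which cleaves both peptides. They were found by gene name among the probes of the array, and all of their probes were taken, 11 of 41174 probes in all.

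RNA of the hippocampus came from 8 mice, 4 of each strain, and each mouse had its own single-color Agilent array. BTBR mice carry the genotype BTBR T+ Itpr3tf/J, and the controls are C57BL/6J. All mice were untreated males, 5 months old. GEO's labels give C57BL/6J as strain background for the BTBR mice as well, while genotype, source and title set them apart, and the groups follow these last labels. BTBR is an inbred strain with many differences from B6, so that a difference between the strains cannot be assigned to one gene. Sequence variants between the strains under a probe were not tested. The arrays with replicate numbers 1 and 2 shared slide 1, and those with 3 and 4 shared slide 2, with both strains on each. Between 56.8% and 71.9% of the probes of an array were well above background, and no probe was saturated. With 4 arrays per strain, precision is limited throughout.

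Both precursors are cut in secretory granules into a short active peptide and a carrier protein called neurophysin. Neurons of the paraventricular and supraoptic nuclei of the hypothalamus make most of the brain's oxytocin and vasopressin, and the hippocampus receives the peptides through axons. Oxtr, Avpr1a and Avpr1b couple mainly to the G protein Gq, phospholipase C and calcium release, and Oxtr and Avpr1b are known from pyramidal neurons of hippocampal area CA2. Cd38 makes cyclic ADP-ribose, a calcium-releasing messenger, and Lnpep is also called oxytocinase.

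The Oxt and Avp probes read neighboring genes of related sequence, so their sequences are shown first. The genes lie tail to tail on chromosome 2. In mm9 coordinates the Oxt probe lies on the plus strand at chr2:130402501-130402644 and the Avp probe on the minus strand at chr2:130406552-130406817, with 3907 bases between them. Each probe is 60 bases long and covers a longer stretch of genome, 144 bases for Oxt and 266 bases for Avp, so that each crosses a splice junction. The capitals mark the longest run that both probes share, 15 bases:
Oxt A_52_P597264: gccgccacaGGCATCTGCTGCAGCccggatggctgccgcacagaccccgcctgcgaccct
Avp A_51_P136508: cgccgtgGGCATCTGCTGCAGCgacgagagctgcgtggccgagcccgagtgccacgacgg
Aligned without gaps, 38 of 58 bases matched (65.5%), and both probes held 73.3% G and C. Among the probes of other genes on the array, the one with the longest run shared with the Oxt probe was that of Avp, and the reverse held too. How much each probe binds the other transcript was not tested.

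The receptor probes for which transcript sequence is shown read Oxtr, on the minus strand at chr6:112438974-112439033, and Avpr1b, on the plus strand at chr1:133497240-133506038. The Avpr1b probe covers 8799 bases of genome, so it also crosses a splice junction. They are shown because the Oxtr probe gave little signal in either strain and the Avpr1b probe was the receptor probe with lower values in BTBR mice:
Oxtr A_52_P430422: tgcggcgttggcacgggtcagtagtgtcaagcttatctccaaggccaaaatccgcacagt
Avpr1b A_51_P220454: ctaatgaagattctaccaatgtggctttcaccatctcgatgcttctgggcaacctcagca

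No member passed the test for a difference between BTBR and B6 hippocampus, and Avpr1a was too dim to be tested. Of the 11 probes, 8 probes of 6 genes passed the filter on dim probes, which asked that 75% or more of the arrays of either strain be well above background. None of these 8 had an adjusted p under 0.05 in limma, the linear model fitted across all probes, where 7.61% of the 27982 probes tested were called (3.31% higher and 4.30% lower in BTBR mice). None of the 8 had an unadjusted p under 0.05, and none was called by the rank product at a proportion of false positives (pfp) of 0.05 or less, which called 3.93% of all tested probes (1.64% higher and 2.29% lower). The arrays of the strains overlapped at each of the 8 probes, while 14.2% of all tested probes had no overlap (6.91% higher and 7.27% lower). BTBR values averaged higher at 6 of the 8 probes and lower at 2. The median difference, BTBR minus B6, was 0.11 on the log2 scale against 0.01 for all tested probes, and the median absolute difference was 0.14 against 0.10. The median of the within-strain SD was 0.16 for the member probes and 0.13 for all tested probes. The lean to higher BTBR values depended in part on B6 replicate 1, the array with the fewest probes well above background. Without it the difference at Oxtr A_51_P328870 fell from 0.17 to 0.10. At Lnpep A_52_P442270 and A_52_P455712 it fell from 0.11 and 0.10 to 0.03 and 0.01. Lnpep A_52_P302395 went from 0.02 to -0.002, Avp from 0.24 to 0.07 and Oxt from 0.71 to 0.72. The p-values of limma measure the spread among the mice of this experiment. The rank product shuffles probes within arrays, not mice, so its pfp does not measure that spread. A difference in whole tissue cannot tell fewer cells of a type from less RNA per cell.

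**Figure D1:**
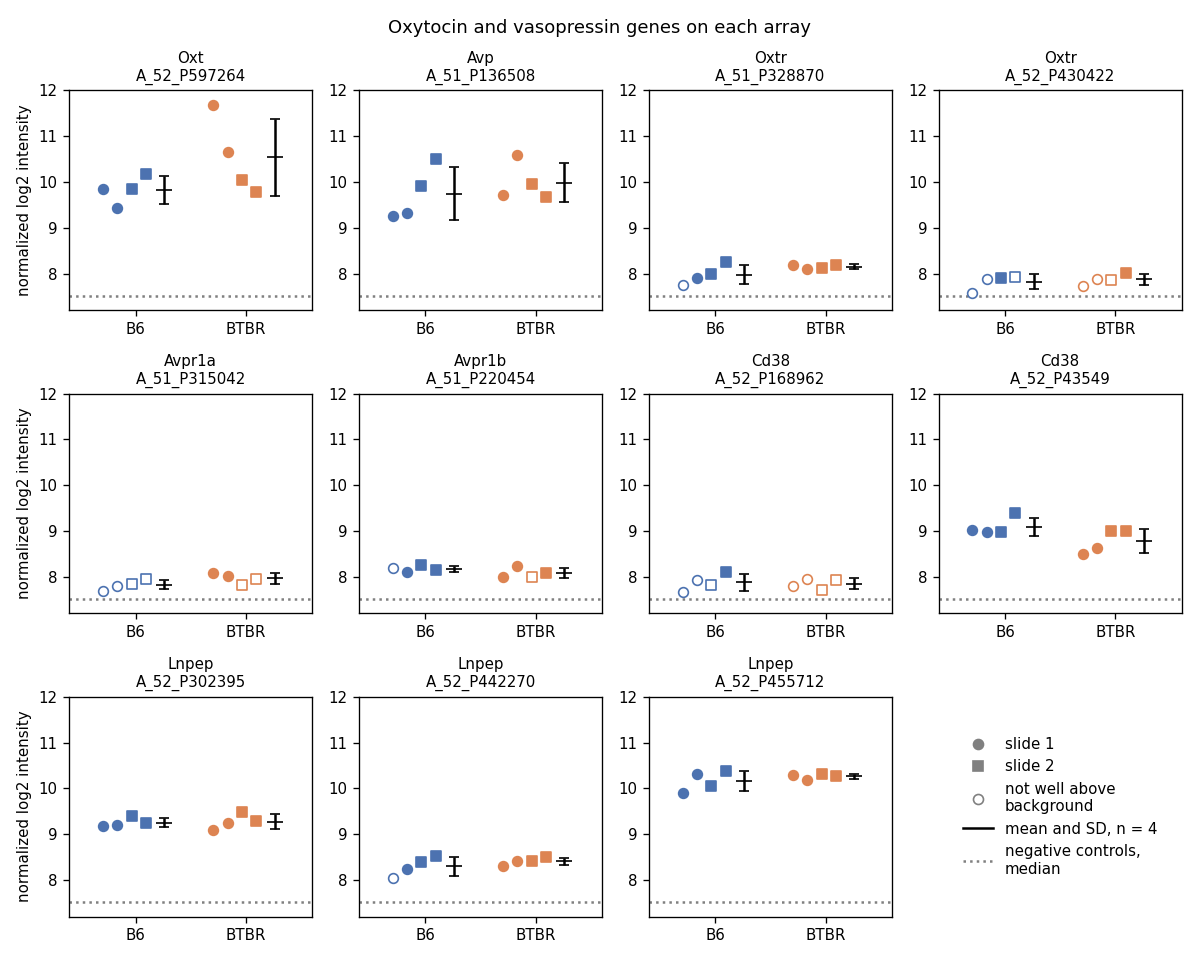
Normalized log2 intensity of the 11 member probes on each array (circles slide 1, squares slide 2, open symbols not well above background), with the mean and SD of the 4 mice of each strain beside them. The dotted line is the median of the negative controls. Oxt on BTBR arrays 1 and 2, at 11.67 and 10.66, lies above all B6 arrays, and the strains overlap at every probe.

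Oxt, the oxytocin precursor, had the widest range over the 8 arrays of the member probes. Its normalized log2 intensity was 9.84, 9.43, 9.85 and 10.18 in B6 replicates 1 to 4, and 11.67, 10.66, 10.05 and 9.78 in BTBR replicates 1 to 4. BTBR mice 1 and 2 stood above all B6 mice, and BTBR mice 3 and 4 lay within the B6 range. B6 averaged 9.82 ± 0.30 (SD, n = 4) and BTBR 10.54 ± 0.84 (SD, n = 4). The difference was 0.71 (SE 0.37, 95% confidence interval -0.13 to 1.56), a fold of 1.64, with an adjusted p of 0.36 in limma. An exact two-sided permutation test of the 8 arrays gave p = 0.2, where 0.0286 is the smallest p that 4 against 4 allows. The rank product gave a pfp of 0.0899 for higher expression. Within slide 1 the difference was 1.53, and within slide 2 it was -0.10. Without both BTBR arrays of slide 1 it was 0.09. Before normalization the mean spot intensity was 3766 in BTBR mouse 1 and 1710 in BTBR mouse 2, and between 754 and 1095 on the other arrays. The probe was well above background on all 8 arrays.

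Avp, the vasopressin precursor, was also well above background on all 8 arrays. The B6 values were 9.26, 9.32, 9.91 and 10.50, and the BTBR values were 9.72, 10.59, 9.96 and 9.66. A single BTBR mouse, replicate 2, stood above all B6 mice, and the strains overlapped over most of their range. B6 averaged 9.75 ± 0.58 (SD, n = 4) and BTBR 9.98 ± 0.42 (SD, n = 4), with a difference of 0.24 (SE 0.30, 95% confidence interval -0.45 to 0.92). Limma gave it an adjusted p of 0.75, and the exact permutation p was 0.543. The sign turned between slides, with 0.87 within slide 1 and -0.39 within slide 2. It was 0.03 without BTBR replicate 2 and 0.49 without B6 replicate 4. The highest Oxt value was in BTBR mouse 1 and the highest Avp value in BTBR mouse 2.

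Markers of tissue near the hippocampus were summed on each array as normalized intensity above the negative controls. The sum of 11 hypothalamic marker genes was 2064, 4282, 2701 and 4095 in B6 replicates 1 to 4. In BTBR replicates 1 to 4 it was 7687, 6649, 1805 and 1772. BTBR mice 1 and 2, which had the highest Oxt values, also had the highest hypothalamic sums. Over the other arrays the order was not the same, since B6 mouse 2 had the lowest Oxt value of all and the highest B6 sum. The order of the sums rests on 1 gene, Cartpt: without it the highest sum was that of B6 mouse 4, at 2607, followed by BTBR mice 2 and 1 at 2365 and 1755, and the others lay between 960.6 and 1496. The transcription factors Sim1 and Otp, which define the neurons that make both peptides, were well above background on 0 of 8 arrays. Cartpt, a neuropeptide gene and the brightest of the list, had 12.58 and 12.13 in BTBR mice 1 and 2, 9.75 and 9.93 in BTBR mice 3 and 4, and 10.34 to 11.54 in B6. Hcrt, the orexin precursor and the second brightest, had 8.92 to 9.84 in BTBR and 9.29 to 10.40 in B6. Its highest values were 10.40 in B6 mouse 4 and 9.84 in BTBR mouse 2. Pmch, another gene of the list, was highest in the same mice, at 10.02 and 9.05. These mice also had the highest Avp values, 10.50 and 10.59. The order of Hcrt and Avp differed over the other arrays, since Hcrt was lowest in BTBR mouse 4 and Avp in B6 mouse 1. None of the 7 hypothalamic genes tested was called by limma (4 higher, 3 lower).

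The summed level of 10 thalamic markers was 178800 in BTBR mouse 1 and 56920 in BTBR mouse 2, against 39840 to 39980 in BTBR mice 3 and 4 and 36060 to 41620 in B6. Prkcd, a protein kinase of thalamic relay neurons, was 15.12 in BTBR mouse 1, while BTBR mice 2 to 4, at 12.36, 12.25 and 11.88, lay inside the B6 range of 11.11 to 12.61. Without Adarb1, the brightest gene of the list, BTBR mice 1 and 2 still had the highest sums, 131600 and 26560, against 13740 to 18170 on the other arrays. All 10 thalamic genes averaged higher in BTBR mice, and 0 of 10 were called by limma. The 8 markers of the choroid plexus summed to 212700 and 198200 in BTBR mice 1 and 2, to 66600 and 57590 in BTBR mice 3 and 4, and to between 48890 and 134700 in B6. Without the brightest, Enpp2, these sums were 78540 and 74320 in BTBR mice 1 and 2 and 15430 to 46540 on the other arrays. All 8 averaged higher in BTBR mice, and 0 of 8 were called. The 9 pituitary markers had another order, with sums of 2280, 2371, 8859 and 18030 in B6 replicates 1 to 4 and of 6130, 9567, 15360 and 25580 in BTBR replicates 1 to 4. These sums overlapped between the strains, and on each slide the highest was that of a BTBR mouse. Without the brightest, Pomc, they were 772.4, 714.2, 3563 and 16040 in B6 and 3963, 2211, 10660 and 23300 in BTBR. BTBR mice averaged higher at 6 of the 7 genes tested, the median difference was 0.63, and 0 were called. Pomc differed by 0.63 (SE 0.47) and Prl by 2.26 (SE 1.15, adjusted p 0.35 in limma). Prl was called in 1 of 13 alternatives, with the replicate number as a block (adjusted p 0.0204 in limma). The part of neighboring tissue in the Oxt and Avp values was not tested.

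**Figure D2:**
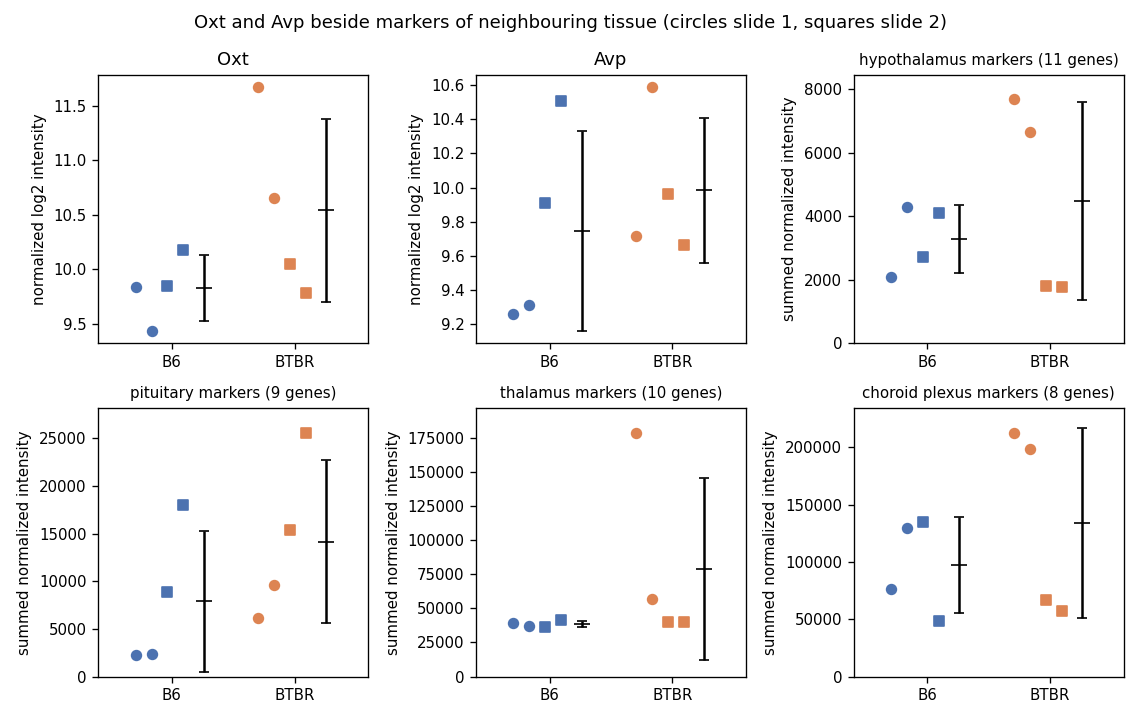
Oxt and Avp (normalized log2 intensity) beside the summed normalized intensity of markers of hypothalamus, pituitary, thalamus and choroid plexus, 1 point per array with the mean and SD of 4 mice beside them. BTBR arrays 1 and 2, the first pair of circles in the BTBR group, are the highest for Oxt and for hypothalamus, thalamus and choroid plexus markers, with hypothalamic sums of 7687 and 6649, an order that rests on Cartpt.

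The oxytocin receptor gene Oxtr was read by a pair of probes, both dim. At A_51_P328870 (minus strand, chr6:112426025-112426086) the values were 7.75, 7.91, 7.99 and 8.26 in B6 mice and 8.19, 8.10, 8.12 and 8.19 in BTBR mice. The BTBR mice lay close together inside the B6 range, above 3 of the 4 B6 mice and below the last. B6 averaged 7.98 ± 0.21 (SD, n = 4) and BTBR 8.15 ± 0.048 (SD, n = 4). The difference of 0.17 (SE 0.10, 95% confidence interval -0.06 to 0.40) had an adjusted p of 0.44 in limma, and the exact permutation p was 0.171. It was 0.31 within slide 1 and 0.03 within slide 2, and ranged from 0.10 without B6 replicate 1 to 0.26 without B6 replicate 4. The probe was well above background on 3 of 4 B6 and 4 of 4 BTBR arrays.

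The other Oxtr probe, A_52_P430422, whose sequence is shown above, was well above background on 1 array of each strain and did not pass the filter. It gave 7.57, 7.88, 7.91 and 7.92 in B6 mice and 7.74, 7.88, 7.86 and 8.02 in BTBR mice, near the negative controls, whose array medians lay between 7.48 and 7.57. The strains overlapped, and without the filter limma gave a difference of 0.05 (SE 0.10) and an adjusted p of 0.89. Without the filter 4.88% of 41020 probes were called, and no member probe was among them.

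Avpr1a, the vasopressin receptor most studied in social behaviour, was read by one probe (plus strand, chr10:121890135-121890194) that did not pass the filter. It was well above background on 0 of 4 B6 and 2 of 4 BTBR arrays, those of BTBR mice 1 and 2. B6 values were 7.70, 7.81, 7.84 and 7.9453, and BTBR values were 8.09, 8.01, 7.81 and 7.955. BTBR mice 1 and 2 stood above all B6 mice, BTBR mouse 4 was level with the highest B6 mouse, and all values were near the background. With no B6 array and only 2 BTBR arrays well above background, no fold is given. The measured means differed by 0.14 (SE 0.08), with an adjusted p of 0.51 in limma without the filter and an exact permutation p of 0.114. It was 0.30 within slide 1 and -0.01 within slide 2.

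Avpr1b, the vasopressin receptor found in CA2 and in the pituitary, was the receptor gene with lower values in BTBR mice. B6 mice gave 8.18, 8.11, 8.26 and 8.15, and BTBR mice gave 7.99, 8.23, 8.0005 and 8.07. BTBR mice 1, 3 and 4 lay below all B6 mice, and BTBR mouse 2 was the second highest of the 8. The means were 8.17 ± 0.063 (SD, n = 4) and 8.07 ± 0.11 (SD, n = 4), a difference of -0.10 (SE 0.07, 95% confidence interval -0.26 to 0.07). Its adjusted p in limma was 0.54 and its exact permutation p 0.171. The sign was the same within slide 1, at -0.03, and within slide 2, at -0.16. The probe was well above background on 3 arrays of each strain. B6 replicate 1 was not well above background at 8.18, while BTBR replicate 1 was at 7.99.

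The constant of 50 added before the log2 step compresses differences at dim probes, so the receptors were also read from the processed signal of the scanner software, scaled to the 75th percentile of each array. On that scale the difference was 0.68 at the Oxtr probe A_51_P328870 (95% confidence interval 0.06 to 1.29, adjusted p 0.22 in limma). This interval is for a single probe and lies above 0, while the adjusted p did not pass the threshold. No difference is read on that scale at Avpr1a, whose B6 values were all at background. The Avpr1b difference became -0.47 (-1.03 to 0.09, adjusted p 0.37), and that of the dimmer Oxtr probe -0.03 (-0.78 to 0.71). The size of these receptor differences depends on the scale, and no receptor probe was called on either.

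**Figure D3:**
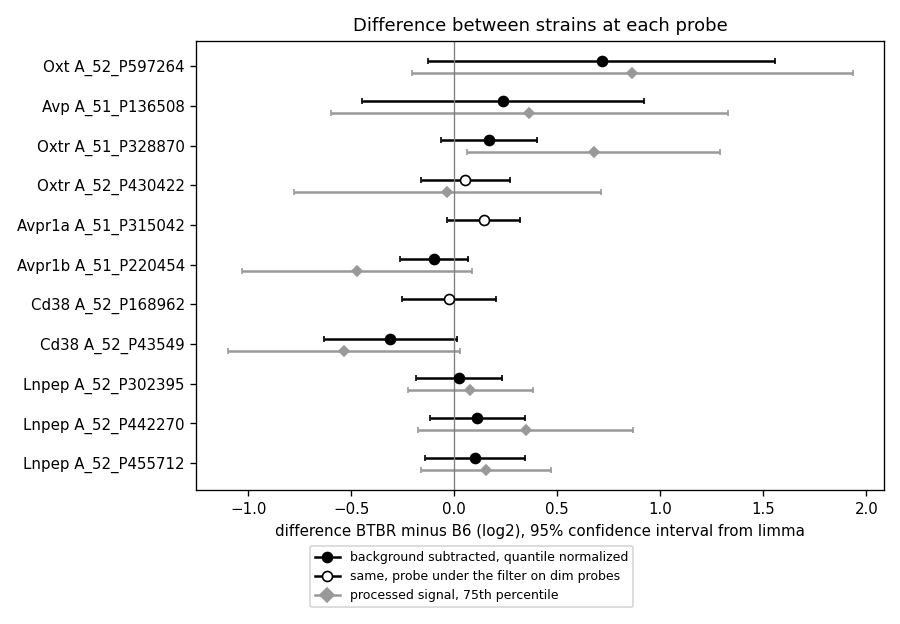
Difference BTBR minus B6 on the log2 scale with its 95% confidence interval at each of the 11 member probes, n = 4 mice per strain, from background subtracted and quantile normalized values (black, open where the probe did not pass the filter) and from the processed signal (grey, not drawn where a strain had no array well above background). The intervals of the black points all include 0, and the grey one of the Oxtr probe A_51_P328870, 0.06 to 1.29, does not.

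Cd38 was read by a pair of probes on the plus strand of chromosome 5. At A_52_P43549 (chr5:44302409-44302468), well above background on all arrays, B6 values were 9.02, 8.97, 8.98 and 9.38, and BTBR values were 8.50, 8.63, 8.99 and 9.00. BTBR mice 1 and 2 lay below all B6 mice, and BTBR mice 3 and 4 lay inside the B6 range. B6 averaged 9.09 ± 0.20 (SD, n = 4) and BTBR 8.78 ± 0.26 (SD, n = 4), a difference of -0.31 (SE 0.14, 95% confidence interval -0.63 to 0.01), or 1.24-fold higher in B6. This was the lowest unadjusted p of the members, 0.0574, with an adjusted p of 0.29 in limma and an exact permutation p of 0.171. The difference was -0.43 within slide 1 and -0.19 within slide 2, and -0.09 without both BTBR arrays of slide 1. On the processed signal it was -0.53 (95% confidence interval -1.10 to 0.03, adjusted p 0.30 in limma). The BTBR mice with the lowest Cd38 values were those with the highest Oxt values.

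The second Cd38 probe, A_52_P168962 (chr5:44298826-44299202, across a splice junction), was well above background on 1 B6 and 0 BTBR arrays. Its values were 7.66, 7.92, 7.82 and 8.10 in B6 mice and 7.81, 7.96, 7.70 and 7.93 in BTBR mice, with overlap. The measured difference was -0.02 (SE 0.10, adjusted p 0.96 in limma without the filter). With 1 of 8 arrays well above background, no fold is given.

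Lnpep was read by 3 probes on the minus strand of chromosome 17, and all 3 passed the filter. At A_52_P302395 (chr17:17665232-17665291) the values were 9.18, 9.19, 9.39 and 9.24 in B6 mice and 9.09, 9.25, 9.47 and 9.28 in BTBR mice. The BTBR mice included both the lowest and the highest value, and the difference was 0.02 (SE 0.09, 95% confidence interval -0.18 to 0.23, adjusted p 0.93 in limma). At A_52_P455712 (chr17:17659190-17659249), the values were 9.91, 10.31, 10.06 and 10.39 in B6 mice and 10.30, 10.18, 10.31 and 10.28 in BTBR mice. All BTBR values lay inside the B6 range, with a difference of 0.10 (SE 0.11, adjusted p 0.70). The third probe, A_52_P442270 (chr17:17661642-17661701), ranged from 8.05 to 8.51 in B6 and from 8.31 to 8.49 in BTBR. It was well above background on 3 of 4 B6 and 4 of 4 BTBR arrays, and its difference was 0.11 (SE 0.10, 95% confidence interval -0.12 to 0.34, adjusted p 0.64). On the processed signal this difference was 0.35 (-0.17 to 0.87, adjusted p 0.49 in limma). In folds, the intervals of the Lnpep probes ran from 0.88 to 1.17, from 0.91 to 1.27 and from 0.92 to 1.27.

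The other genes of the pathway were described from lists of 68 genes in 6 groups, each gene by its brightest probe. Of the 65 tested, 3 were called by limma (4.62%), 2 higher and 1 lower in BTBR mice, against 7.82% of 18399 genes tested the same way. Without BTBR replicate 3 the count was 7, and without both BTBR arrays of slide 1 it was 3. The median difference of the 65 genes was near 0, at -0.004, with 32 higher and 33 lower.

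Among 11 genes that process or store peptide hormones, Scg5 was up-regulated and the other 10 were not called. Scg5 encodes the secretory chaperone of the convertase Pcsk2. Its values were 14.25, 14.62, 14.48 and 14.43 in B6 mice and 15.99, 16.06, 15.82 and 15.81 in BTBR mice. All BTBR mice stood above all B6 mice, by 1.47 on average (SE 0.10), and the call held under all 13 alternatives run on the lists, with adjusted p up to 5.74e-04 in limma. The convertases Pcsk1 and Pcsk2, the carboxypeptidase Cpe and the amidating enzyme Pam were in the same list, with differences of 0.36, 0.21, -0.20 and 0.03. Their adjusted p in limma lay above the threshold, at 0.25, 0.38, 0.24 and 0.93.

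The 10 genes of peptide clearance and of Lnpep's cellular partners included one down-regulated gene, Ide, the insulin-degrading enzyme, a peptidase of broad range. Ide gave 13.42, 13.54, 13.58 and 13.20 in B6 mice and 12.81, 12.72, 12.54 and 12.69 in BTBR mice. All BTBR mice lay below all B6 mice. The difference was -0.75 (SE 0.10, adjusted p 0.002 in limma) and was called under all 13 alternatives.

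Of 12 other peptide receptors tested, Ntsr2, a neurotensin receptor of astrocytes, was up-regulated. Its values were 16.27, 16.07, 16.23 and 16.08 in B6 mice and 16.46, 16.54, 16.47 and 16.60 in BTBR mice, without overlap. The difference was 0.35 (SE 0.07, adjusted p 0.016 in limma). The call was lost in 5 of 13 alternatives, with differences of 0.32 to 0.37. The adjusted p was 0.0582 without B6 replicate 2, 0.0568 without B6 replicate 4, 0.0679 without both BTBR arrays of slide 1, 0.0754 with the replicate number as a block and 0.0845 on the processed signal. Avpr2, the kidney vasopressin receptor, was well above background on 0 of 8 arrays.

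None of the 17 genes of Gq and calcium signalling was called (8 higher, 9 lower), nor any of the 9 regulators of receptor activity (5 higher, 4 lower). With arrays left out, limma called some of them. Plcb2 was called without BTBR replicate 2 (adjusted p 0.0225) and Prkca without both BTBR arrays of slide 1 (0.0110). Grk5 and Arrb2 were called without BTBR replicate 3 (0.0224 and 0.0493). Itpr3, a calcium-release channel whose allele gives the BTBR strain part of its name, averaged 11.24 ± 0.27 (SD, n = 4) for B6 and 11.11 ± 0.17 (SD, n = 4) for BTBR, with a difference of -0.13 (SE 0.14, adjusted p 0.71 in limma). Of the genes of cyclic ADP-ribose and calcium release beside Cd38, 6 were tested, 5 lower and 1 higher in BTBR mice, and 0 were called. The ryanodine receptors Ryr1, Ryr2 and Ryr3, through which cyclic ADP-ribose releases calcium, had differences of -0.18, -0.31 and -0.05, with adjusted p of 0.77, 0.35 and 0.93. Bst1, the paralog of Cd38, was well above background on 1 B6 and 0 BTBR arrays and was not tested.

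**Figure D4:**
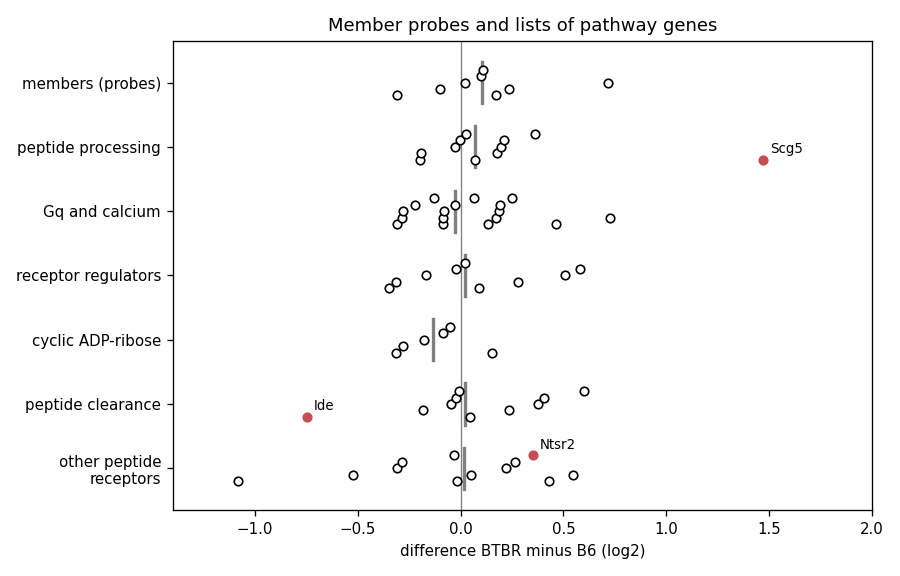
Difference BTBR minus B6 (log2) of the 8 member probes tested and of the genes of 6 pathway lists, 1 point per probe or gene, with the median of each as a grey bar. Scg5 at 1.47, Ide at -0.75 and Ntsr2 at 0.35, in red, are the genes with an adjusted p under 0.05 in limma, and no member probe is among them.

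Cells that carry the members were followed by their own markers. The 10 CA2 markers summed to 266000 and 304500 in BTBR mice 1 and 2, to 160700 and 147600 in BTBR mice 3 and 4, and to between 149300 and 196600 in B6. Without the brightest, Pcp4, the sums were 114200 and 122700 in BTBR mice 1 and 2 and 86150 to 106500 on the other arrays. Sostdc1 had the largest difference of the list, 1.65 (SE 0.59, adjusted p 0.16 in limma). It was 13.98 and 13.71 in BTBR mice 1 and 2 and 10.29 to 11.72 on the other arrays. Those mice also had the highest choroid plexus sums. The part of Sostdc1 in the CA2 sums was not tested. BTBR mice 1 and 2 are those with the highest Oxt, the lowest Cd38 and Avpr1a above background. In the CA2 list 0 of the 9 genes tested were called (7 higher, 2 lower). Their brightest genes, Pcp4 and Necab2, differed by 0.52 (SE 0.44) and 0.16 (SE 0.17). Other CA2 genes had the opposite order in BTBR mice 1 and 2: Rgs14 was 13.76 and 14.02 there and 14.70 to 14.96 in B6, and Ntf3 was 8.69 and 7.91 there and 9.19 to 10.0037 in B6. Of 12 microglial genes, whose cell type also expresses Cd38, 1 was called higher and 5 lower, 50% of the list. The call of Tyrobp was lost without B6 replicate 2 or without B6 replicate 3 (adjusted p 0.0512 and 0.0524 in limma), and that of Itgam without both BTBR arrays of slide 1 (0.0538). Over all marker lists 8 of 78 genes tested were called (10.3%), against 7.82% of all genes. The fractalkine receptor Cx3cr1 had a difference of 1.41 (SE 0.09), and the complement gene C1qb of -1.01 (SE 0.11). The 12 genes summed to between 93270 and 101400 in B6 and between 76790 and 100800 in BTBR. Among 10 astrocyte genes, Gfap was called, with a difference of -1.303 (SE 0.17), and the sums were 613800 to 643600 in B6 and 491700 to 622800 in BTBR. Among 5 lymphocyte genes tested, Ptprc, a marker of all leukocytes, was called, with a difference of -0.85 (SE 0.07), and the sums were 1308 to 1788 in B6 and 1148 to 1623 in BTBR. None of 10 neuronal genes was called, with sums of 370900 and 347100 in BTBR mice 1 and 2, 425900 and 413100 in BTBR mice 3 and 4, and 404800 to 416400 in B6. Their part in the Cd38 and receptor values was not tested.

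For the members whose brightest probe was well above background on all 8 arrays, the genes with the most similar pattern were looked up among 18399 genes, after the mean of each strain was subtracted. The measure was Pearson's r over the 8 arrays, given as a description, since the highest of many values is large by selection. Oxt was most like Mms22l (r = 0.998, Spearman's rho = 0.976, r = 0.994 without the 2 arrays farthest from the median of Oxt) and the unnamed transcript TC1643908 (r = 0.977). Avp was most like Pgp (r = 0.988, rho = 0.976, and r = 0.938 without the farthest arrays) and Setd8 (r = 0.973). Cd38 was most like ENSMUST00000049836 and 3110002H16Rik, both at r = 0.995 (rho = 0.976, and 0.989 and 0.996 without the farthest arrays). Lnpep had lower values, 0.972 with 9030407P20Rik and 0.969 with TC1686295.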

How the data were processed

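Per the file headers, spot intensity was read by the authors from Cy3-labeled RNA with Agilent Feature Extraction 10.7.3.1. The authors also deposited a matrix of log2 values, background subtracted, quantile normalized and summarized by the median of replicate spots. The offset of that step is not given in the sources used here, and the matrix served as an alternative. Here the median local background was taken off each mean intensity, with a minimum of 0.5, 50 was then added, and the log2 values of the 8 arrays were quantile normalized. Left out were control spots, 154 probes that carried an outlier flag, and dim probes (well above background on under 75% of the arrays in both strains). A log2 difference is on the log2(value + 50) scale and understates the change of dim genes. Probe positions are mm9, as in the array files, which do not give the transcript feature under a probe. Gene names and probe sequences are also those of the array files, and levels were compared between arrays and not between probes.

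Limma 3.58.1 in R 4.3.3 fitted strain alone, and p-values were adjusted by Benjamini-Hochberg over all probes tested. The rank product, the test of the study, was run with 100 permutations, and both scripts were tested on simulated data. Single probes were also compared by exact permutation tests. Within a slide, differences were taken without a test, with 2 mice per strain. A list gene was represented by its brightest probe. The members and lists were chosen with earlier results of these data known, and the lists were written from general knowledge. The genes named were all members, Itpr3, the called genes of each pathway list and the brightest or called genes of each marker list by rule. The other list genes (Pcsk1, Pcsk2, Cpe, Pam, Ryr1, Ryr2, Ryr3, Bst1, Avpr2, Sim1, Otp, Pmch, Rgs14, Ntf3, Sostdc1, Itgam, Plcb2, Prkca, Grk5, Arrb2) were named for their roles or their values, after values were seen. Alternatives were normexp in place of subtraction, the processed signal, median centring, the deposited matrix, other filters, kept outlier flags, a block for the slide or for the replicate number, trend and robust options, and each array left out in turn. Figures were drawn with Matplotlib 3.10.9.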

Additional observations from a re-analysis of the deposited data

Results flagged for a closer look

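At the dim Oxtr probe A_52_P430422, B6 replicate 1 lay at 7.57 on the normalized log2 scale, apart from the other B6 mice at 7.88 to 7.92. At the Cd38 probe A_52_P43549, B6 replicate 4 lay at 9.38, apart from the other B6 mice at 8.97 to 9.02. In both the gap to the nearest mouse, divided by the range of the strain, was above Dixon's 95% critical value for 4 samples. With 22 groups of 4 mice looked at, chance gives about 1 such group in 20, or 1.1, and 2 were found.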

How the results depend on the processing

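No member probe was called by limma or the rank product under any alternative run. The sign of the difference between BTBR and B6 turned in these cases. Within slide 2 it was -0.10 for Oxt, -0.39 for Avp and -0.012 for Avpr1a. The Oxtr probe A_52_P430422 gave -0.033 on the processed signal, and leaving out 1 array at a time gave -0.029 to 0.10. Cd38 A_52_P168962 gave 0.092 within slide 1, and -0.097 to 0.050 with 1 array left out. Lnpep A_52_P302395 gave -0.016 within slide 1 and -0.044 to 0.084 with 1 array left out. The cause was not tested. With 1 array left out, the Oxt difference ran from 0.34 to 0.97, the lowest without BTBR replicate 1, that of Avp from 0.03 to 0.49, of Oxtr A_51_P328870 from 0.10 to 0.26, of Avpr1b from -0.15 to -0.07, of Cd38 A_52_P43549 from -0.38 to -0.21, of Lnpep A_52_P442270 from 0.03 to 0.18 and of Lnpep A_52_P455712 from 0.01 to 0.17. Calls in the pathway lists ran from 2 to 7, with 3 on all arrays and 7 without BTBR replicate 3, and those in the marker lists from 7 to 9. The analyses without both BTBR arrays of slide 1 and the sums without the brightest gene of a list were chosen after seeing the data.

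Same-numbered mice of the strains did not all deviate together, with correlations from -0.14 to 0.51, so the numbers were not taken to pair them. With the replicate number as a block, 0 member probes, 2 pathway genes and 9 marker genes were called. Signal over background limits Avpr1a, Avpr1b, both Oxtr probes and Cd38 A_52_P168962.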
